A study of Mus musculus with 10 samples.

Results

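Integrin and laminin subunit genes were examined in the anterior fontanelle (AF) of the embryonic mouse skull, the fibrous gap between the frontal and parietal bones. Members were taken by symbol from the protein-coding genes of the count table, as numbered or lettered *Itga*, *Itgb*, *Lama*, *Lamb* and *Lamc* genes, and levels played no part in the choice. The rule found 37 of the 23080 genes listed, with 18 integrin alpha, 8 integrin beta and 11 laminin genes (5 alpha, 3 beta and 3 gamma chains). Bulk RNA-seq had been made at E18.5 on the dissected AF. Per the study's text the samples held bone as well as fibrous tissue, and skin and brain were left out. There were 5 libraries with the genotype WT and 5 with the genotype Wnt1-Cre; Fgfr2fl/fl, labelled NCC Fgfr2 KO. Wnt1-Cre drives recombination in the neural crest, so cells of other origin in the same sample, such as blood and vessel cells, keep the receptor gene. No treatment was given, and both groups were collected at the same stage.

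Integrins are cell surface receptors made of an alpha and a beta subunit, which hold cells to the extracellular matrix or to other cells. The alpha subunit sets much of the ligand choice, and the beta subunit links to talin, kindlin and the actin cytoskeleton. Laminins are trimers of an alpha, a beta and a gamma chain and organize the basement membranes around vessels, nerves, muscle fibers and epithelia. In bone, integrins that bind collagen or RGD motifs anchor osteoblasts and osteoclasts to the matrix.

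The libraries held 20774667 to 28515434 estimated counts, and 15317756 to 20480184 without 6 ribosomal RNA genes. Levels are given as CPM, counts scaled to a common library total after TMM normalization. *Fgfr2* itself did not have a lower total in the libraries labelled NCC Fgfr2 KO. Its total transcript level was 199 ± 21.6 CPM (SD, n = 5) in the libraries labelled WT and 318 ± 32.7 CPM in those labelled NCC Fgfr2 KO, without overlap, a log2 fold change of 0.67 (SE 0.090, adjusted p = 0.0486 by edgeR's quasi-likelihood test). The call at an adjusted p under 0.05 was lost with the replicate number as a block and with an osteoblast marker score as a covariate. Leaving out library 1, 3, 4 or 5 of either group also lost it. A gene count sums transcripts of intact and recombined alleles and does not report on the deleted part, and the libraries are therefore named here by label, as control-labelled and mutant-labelled. The 10 osteoblast markers summed to 1796 to 2541 CPM in the control-labelled and 1523 to 1863 CPM in the mutant-labelled group. The 5 tendon-like markers include *Scx*, *Tnmd*, *Mkx* and *Matn4*, by which the study named its AF cells. They summed to 149 to 192 CPM in the control-labelled and 202 to 280 CPM in the mutant-labelled libraries. Of these 5, 4 were higher in the mutant-labelled group with an unadjusted p under 0.05 by edgeR, and 1 was lower. The 8 epidermal markers in the table summed to 6.38 to 11.3 CPM over all 10 libraries. The 8 skeletal muscle markers summed to 19.3 to 732 and 18.7 to 725 CPM and varied widely within both groups. The 8 neuron markers summed to 56.5 to 149 CPM in the control-labelled and 60.9 to 445 CPM in the mutant-labelled libraries. Their sum was highest in mutant-labelled library 2, and no other library passed 188 CPM. All 8 had higher values in the mutant-labelled group, and 2 an unadjusted p under 0.05 by edgeR. Fewer cells of a type and less RNA per cell cannot be told apart in such bulk tissue.

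The collagen receptor genes *Itga2* and *Itga1* lie next to each other on the minus strand of chromosome 13, with 21 kb between the start of *Itga2* and the end of *Itga1*, and the products of both pair with that of *Itgb1*. Their promoters are shown because *Itga2* was the integrin gene with the lowest p-value, while its neighbor and its partner differed less. Each window holds the 250 bases before the RefSeq start site (GRCm38.p6, mm10), 5′ to 3′ on the strand of the gene, and capitals mark a GC box core.
Itga2 (chr13:114932101-114932350, minus strand): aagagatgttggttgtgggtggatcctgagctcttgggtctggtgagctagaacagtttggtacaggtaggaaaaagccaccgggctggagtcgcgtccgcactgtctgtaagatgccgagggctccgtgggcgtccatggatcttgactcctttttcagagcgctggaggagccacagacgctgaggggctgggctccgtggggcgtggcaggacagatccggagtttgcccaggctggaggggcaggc
Itga1 (chr13:115101965-115102214, minus strand): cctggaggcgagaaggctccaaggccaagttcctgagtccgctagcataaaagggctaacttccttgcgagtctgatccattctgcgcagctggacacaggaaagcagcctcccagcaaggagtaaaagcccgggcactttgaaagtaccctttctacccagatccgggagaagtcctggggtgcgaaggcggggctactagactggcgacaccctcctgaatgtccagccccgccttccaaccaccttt
Itgb1 (chr8:128685404-128685653, plus strand): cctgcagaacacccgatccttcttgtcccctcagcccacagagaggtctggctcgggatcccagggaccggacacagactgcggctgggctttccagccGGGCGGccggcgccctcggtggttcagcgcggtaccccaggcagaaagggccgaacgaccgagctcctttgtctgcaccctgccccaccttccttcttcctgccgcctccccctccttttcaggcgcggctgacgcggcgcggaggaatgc
The windows were searched on both strands for the GC box core GGGCGG, the RUNX core TGTGGT, the TATA box TATAAA and the AP-1 site TGACTCA. Of all 32851 promoter windows of this length in the RefSeq table, 32.7% held the GC box core, 14% the RUNX core, 12.4% the TATA box and 4.46% the AP-1 site. Among the 23 members with a window, 8 held the GC box core (*Itga3*, *Itga4*, *Itga5*, *Itgam*, *Itgb1*, *Itgb5*, *Lama5* and *Lamb1*), 2 the RUNX core (*Itga3* and *Itga4*), 1 the AP-1 site (*Itgax*) and 0 the TATA box. None of these letters were found in the windows of *Itga2* and *Itga1*.

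The subunits ranged from abundant to undetected in some libraries, and levels are compared between genes as CPM per kb of exons. *Itgb1*, the common partner of collagen, fibronectin and laminin receptors, was the highest member at 131 ± 10.2 CPM per kb (SD, n = 10), with a range of 107 to 142. *Itgb5*, which pairs with the αv subunit, followed at 90.1 ± 10.7 CPM per kb, and its range of 72.2 to 105 stayed below that of *Itgb1*. *Itgb3*, another partner of αv, reached 17.3 ± 3.07 CPM per kb. The leukocyte subunit genes *Itgb2* and *Itgb7* stood at 7.15 ± 1.48 and 2.72 ± 0.372 CPM per kb. *Itgb4*, whose product joins α6 in hemidesmosomes and Schwann cells, stood at 1.01 ± 0.197, *Itgb8* at 0.282 ± 0.140 and the epithelial subunit gene *Itgb6* at 0.0256 ± 0.0252 CPM per kb.

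**Figure D1:**
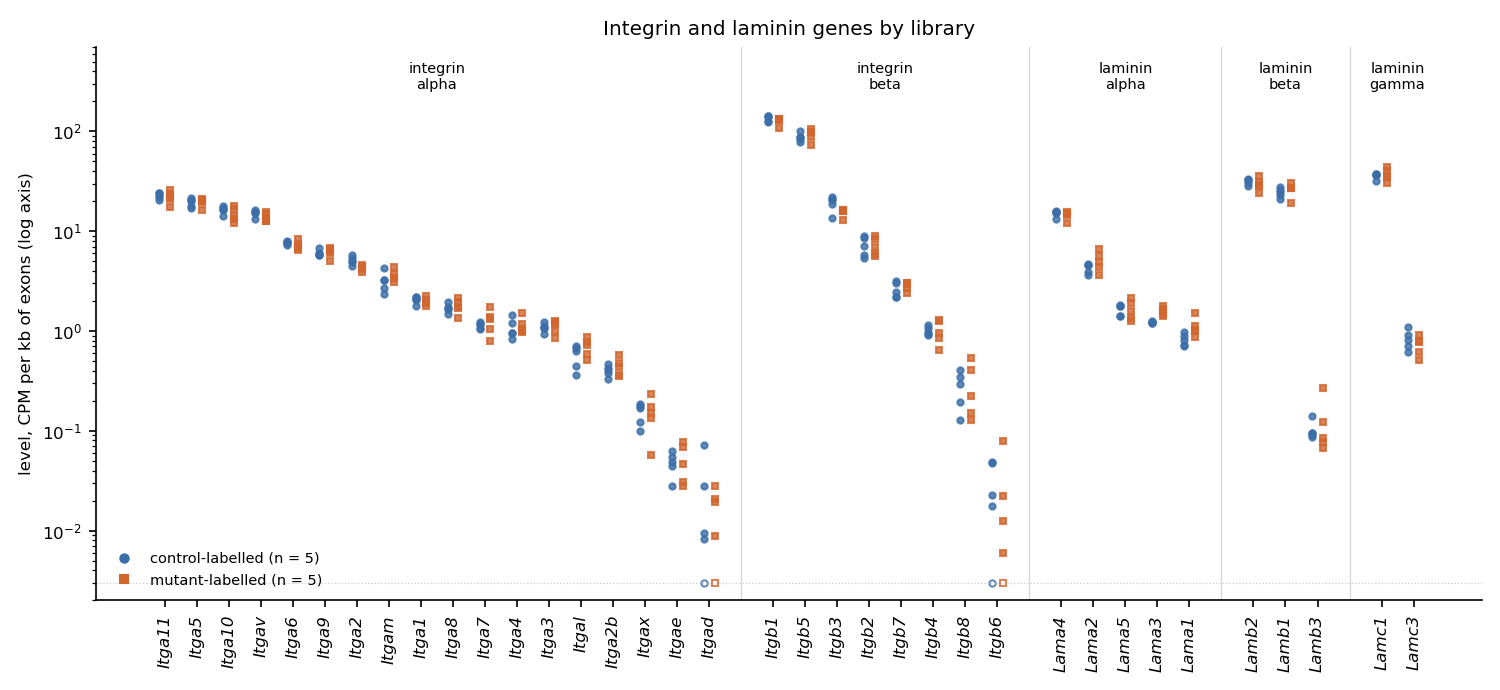
Level of the integrin and laminin genes in CPM per kb of exons on a log axis, by family, with 1 symbol for each of the 5 control-labelled and 5 mutant-labelled libraries. Open symbols on the dotted line mark libraries at 0 counts. *Itgb1* and *Itgb5* stand above all alpha subunits and laminin chains, and *Itgad*, *Itgae* and *Itgb6* lie lowest.

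Among the alpha subunits, *Itga11*, a collagen receptor gene of fibroblasts and osteogenic cells, was the highest at 22.3 ± 2.33 CPM per kb. The fibronectin receptor gene *Itga5* (19.4 ± 1.67), the cartilage collagen receptor gene *Itga10* (15.6 ± 1.99) and the RGD receptor gene *Itgav* (14.5 ± 1.41) followed, and the ranges of neighbors in this order overlapped. Of the exon bases of *Itga10*, 33.5% are shared with *Gm42957* on the same strand, so that its reads could have been split. The laminin receptor gene *Itga6* stood at 7.45 ± 0.586, *Itga9*, a receptor gene for tenascin and other ligands, at 6.12 ± 0.541 and *Itga2* at 4.71 ± 0.563 CPM per kb. *Itgam*, a myeloid subunit gene, stood at 3.39 ± 0.629 CPM per kb, with 68.7% of its exon bases shared with the same-strand *Gm49368*. *Itga1* (2.01), *Itga8* (1.74), *Itga7* (1.201), *Itga4* (1.11) and *Itga3* (1.09) were lower. The leukocyte subunit gene *Itgal* (0.632), the platelet subunit gene *Itga2b* (0.422) and the dendritic cell gene *Itgax* (0.150) came next. *Itgae* rested on 3 to 8 counts per library, *Itgad* on 0 to 8 and *Itgb6* on 0 to 12, and these 3 genes did not pass the filter on low counts.

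The laminin chain genes with the highest levels were *Lamc1* (36.5 ± 3.93 CPM per kb, SD, n = 10), *Lamb2* (30.5 ± 3.16) and *Lamb1* (25.3 ± 3.36). *Lama4*, the alpha chain of endothelial and mesenchymal basement membranes, stood at 14.8 ± 1.18 CPM per kb, and *Lama2*, the alpha chain of muscle and Schwann cell basement membranes, at 4.68 ± 0.930. *Lama5* (1.65 ± 0.284), *Lama3* (1.41 ± 0.220) and *Lama1* (0.962 ± 0.232) were lower. *Lamc3* (0.777) and *Lamb3* (0.112) were lower still. *Lama3* and *Lamb3* encode chains of laminin-332 of epithelial basement membranes, and the range of *Lama3* (1.202 to 1.79 CPM per kb) lay above that of *Lamb3* (0.0667 to 0.267).

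Shares of the summed level per length show the make-up of each chain type. Of the laminin alpha level, *Lama4* took 65.5% ± 2.46 in the control-labelled and 60.7% ± 3.24 in the mutant-labelled libraries (SD, n = 5). *Lama2* took 18.51% ± 1.51 and 21.1% ± 2.68. The share of *Lama3* was 5.31% ± 0.255 and 6.72% ± 0.439, without overlap between the groups. Of the beta subunit level, *Itgb1* took 53.4% ± 2.82 and 51.5% ± 1.09 and *Itgb5* 34.7% ± 3.19 and 37.6% ± 1.96, with overlap for both.

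The comparison of the labels asks which of these receptors and chains change in the AF with the loss of *Fgfr2* in the neural crest. Of the 37 members, 34 passed the filter, and 0 of them differed at an adjusted p under 0.05 by edgeR's quasi-likelihood test, against a background of 3 of 16267 genes tested (0.0184%). DESeq2's Wald test called 1 member, *Lama3*, against 98 of 15923 genes (0.615%). At an unadjusted p under 0.05 by edgeR there were 5 members (14.7%), while 7.49% of all genes tested passed that limit. The 2 with higher values in the mutant-labelled group, *Lama3* and *Lama1*, compare with 3.68% of all genes, and the 3 with lower values, among them *Itga2* and *Itgb3*, with 3.82%. The groups did not overlap for 1 member, again *Lama3*, and for 1.49% of all genes. Over the 34 members the log2 fold changes had a median of 0.016, beside 0.00074 over all genes, and 20 were above and 14 below 0. The fold change was smaller than its standard error for 20 of the 34.

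**Figure D2:**
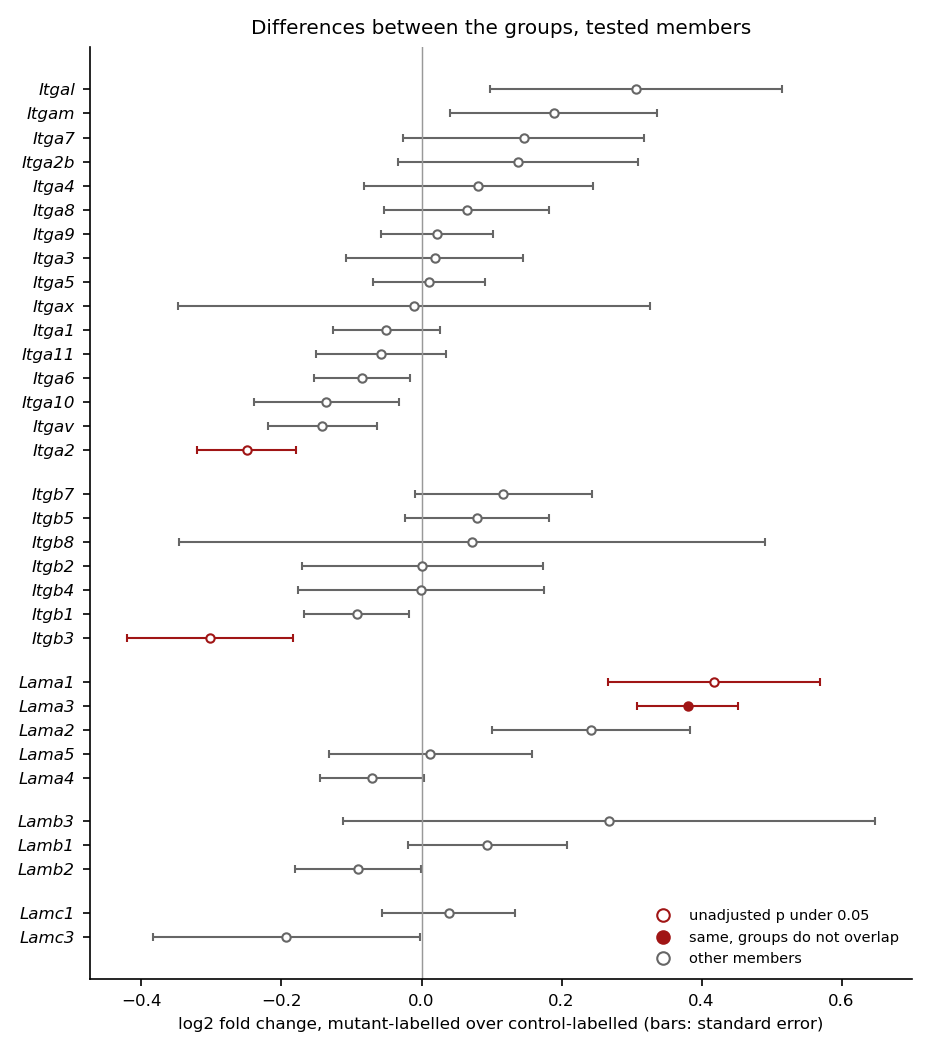
Log2 fold change, mutant-labelled over control-labelled, of tested members, by family, with bars for the standard error. Red marks members at an unadjusted p under 0.05, and the filled symbol marks *Lama3*, whose groups do not overlap. The fold change of 20 members is smaller than its standard error.

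*Lama3*, an alpha chain gene of epithelial laminins on chromosome 18, had the lowest p-value of the members. The control-labelled libraries 1 to 5 held 13.1, 12.9, 13, 13.3 and 13.5 CPM, and the mutant-labelled libraries 17.6, 15.1, 19.2, 15.9 and 17.9 CPM. The control-labelled values lay close together and below all mutant-labelled values. The means of 13.2 ± 0.240 and 17.1 ± 1.63 CPM (SD, n = 5) gave a log2 fold change of 0.38 (SE 0.072, unadjusted p = 0.000209, adjusted p = 0.183 by edgeR). The two-sided exact permutation test gave p = 0.00794, the smallest it can give with 5 and 5 libraries. Without any single library the log2 fold change stayed between 0.35 and 0.43, and the adjusted p of edgeR between 0.112 and 0.485. DESeq2's Wald test gave 0.39 (SE 0.085) and an adjusted p of 0.00357. With the osteoblast marker score as a covariate in edgeR the log2 fold change was 0.45 (unadjusted p = 0.00202). The gene rested on 306 to 449 counts per library.

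*Lamb3*, the beta chain gene of laminin-332, held 0.572 to 0.925 and 0.441 to 1.76 CPM (log2 fold change 0.27, SE 0.38, unadjusted p = 0.496 by edgeR) on 10 to 38 counts. Epidermal markers overlapped between the groups. They summed to 6.38 to 9.77 CPM in the control-labelled and 6.97 to 11.3 CPM in the mutant-labelled libraries, 0 of the 6 tested had an unadjusted p under 0.05 by edgeR, and the basal keratin gene *Krt14* averaged 0.248 and 0.280 CPM. Over the 10 libraries with group means removed, *Lama3* and the mean log2 CPM of the epidermal markers gave r = -0.70 (permutation p = 0.0234, adjusted p = 0.0702) and rho = -0.60 (permutation p = 0.0730, adjusted p = 0.286), adjusted over 18 such pairs. Without the 2 libraries farthest from the median score, r was -0.59.

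*Lama1*, an alpha chain gene of early embryonic and meningeal basement membranes at chr17:67697259-67822647, was the other laminin with higher values in the mutant-labelled group. The control-labelled libraries held 6.96, 8.67, 9.56, 6.78 and 7.89 CPM, and the mutant-labelled libraries 10.9, 9.65, 14.5, 9.82 and 8.34 CPM. Mutant-labelled library 3 was the highest, and library 5 of that group lay within the control-labelled range. The log2 fold change was 0.42 (SE 0.15, unadjusted p = 0.0176, adjusted p = 0.590 by edgeR), and it lay between 0.29 and 0.50 without any single library. With the osteoblast score as a covariate in edgeR it was 0.43 (unadjusted p = 0.0930). The 8 meningeal markers summed to 113 to 158 CPM in the control-labelled and 118 to 210 CPM in the mutant-labelled libraries, 3 of 8 were higher in the latter, and mutant-labelled library 3 again had the highest sum. *Lama1* and the meningeal score gave r = 0.39 (permutation p = 0.268, adjusted p = 0.482) and rho = 0.12 (permutation p = 0.759, adjusted p = 0.854), and r was -0.42 without control-labelled library 5 and mutant-labelled library 3. The part of meningeal tissue in the values of *Lama1* was not tested.

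**Figure D3:**
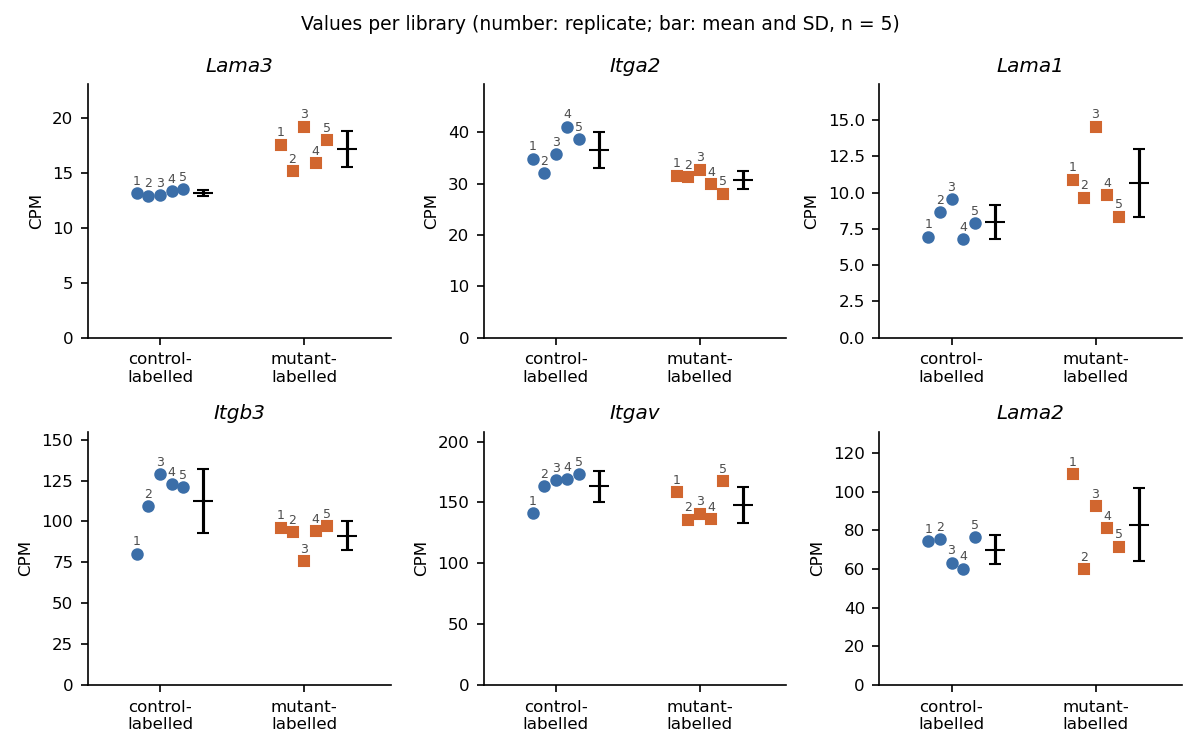
CPM in each library, numbered by replicate, for *Lama3*, *Itga2*, *Lama1*, *Itgb3*, *Itgav* and *Lama2*, with the mean and SD of each group of 5. *Lama3* holds 12.9 to 13.5 CPM in the control-labelled and 15.1 to 19.2 CPM in the mutant-labelled libraries, and the groups overlap for the other 5 genes.

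The other laminin chains did not pass the test. *Lamc1*, the common gamma chain gene at chr1:153218922-153332786, held 308, 304, 264, 302 and 312 CPM in the control-labelled and 367, 251, 331, 286 and 295 CPM in the mutant-labelled libraries. The mutant-labelled values lay on both sides of the control-labelled ones (log2 fold change 0.039, SE 0.095, adjusted p = 0.952 by edgeR). *Lamb2*, a beta chain gene at chr9:108479736-108490530, held 202, 174, 186, 198 and 198 CPM against 187, 148, 216, 177 and 172 CPM (log2 fold change -0.090, SE 0.090, adjusted p = 0.852 by edgeR). *Lamb1*, the beta chain gene at chr12:31265234-31329644, held 257, 273, 209, 229 and 247 CPM against 267, 191, 266, 305 and 269 CPM (log2 fold change 0.094, SE 0.11, adjusted p = 0.881 by edgeR). Mutant-labelled library 2 was the lowest for all 3 of these chains. *Lama4* held 161 to 193 and 146 to 187 CPM (log2 fold change -0.071, SE 0.075), *Lama5*, a chain of mature vessel and epithelial basement membranes, 15.9 to 20.8 and 14.4 to 24.2 CPM (0.013, SE 0.15) and *Lamc3* 3.76 to 6.75 and 3.13 to 5.60 CPM (-0.19, SE 0.19). *Lama2* held 60.1 to 76.5 CPM in the control-labelled and 60.0 to 109 CPM in the mutant-labelled group (log2 fold change 0.24, SE 0.14, unadjusted p = 0.113 by edgeR).

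Among the collagen receptors, *Itga2* at chr13:114833081-114932100, whose promoter is printed above, had the lowest p-value of any integrin gene. It held 34.9, 32.1, 35.7, 41.1 and 38.7 CPM in the control-labelled and 31.5, 31.2, 32.7, 29.9 and 28.1 CPM in the mutant-labelled libraries. The groups overlapped only through control-labelled library 2 and mutant-labelled library 3. The means of 36.5 ± 3.48 and 30.7 ± 1.78 CPM (SD, n = 5) gave a log2 fold change of -0.25 (SE 0.071, unadjusted p = 0.00440, adjusted p = 0.412 by edgeR), which lay between -0.28 and -0.20 without any single library. Of the osteoblast markers, 10 of 10 had lower values in the mutant-labelled group and 7 of 10 an unadjusted p under 0.05 by edgeR. With the osteoblast score as a covariate in edgeR, the log2 fold change of *Itga2* was -0.081 (unadjusted p = 0.386). The score itself averaged 7.24 in the control-labelled and 6.86 in the mutant-labelled group (exact permutation p = 0.0159). A fit with this covariate therefore cannot separate the score from the label. The part of osteoblasts in the values of *Itga2* was not tested.

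The other collagen receptor subunits lay closer to 0. *Itga11*, at chr9:62677826-62783982, held 125, 124, 116, 113 and 106 CPM in the control-labelled and 113, 89.1, 120, 108 and 132 CPM in the mutant-labelled libraries (log2 fold change -0.058, SE 0.093, adjusted p = 0.922 by edgeR). *Itga10*, at chr3:96645584-96664519, held 93.6, 83.8, 87.6, 85.5 and 74.1 CPM against 74.03, 63.2, 87.2, 69.4 and 92.8 CPM (log2 fold change -0.14, SE 0.10, adjusted p = 0.799 by edgeR). *Itga1*, beside *Itga2* on the chromosome, held 32.8 to 41.1 and 32.7 to 41.4 CPM (log2 fold change -0.050, SE 0.076). Their common partner *Itgb1*, at chr8:128685654-128733200, held 571, 520, 503, 577 and 578 CPM against 530, 438, 525, 542 and 545 CPM (log2 fold change -0.092, SE 0.075, adjusted p = 0.809 by edgeR). Mutant-labelled library 2 was the lowest for *Itga10*, *Itga11* and *Itgb1*.

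Of the RGD receptor subunits, *Itgb3* at chr11:104608000-104670476, which pairs with αv on osteoclasts and with αIIb on platelets, had lower values in the mutant-labelled group. The control-labelled libraries held 80.3, 109, 129, 123 and 121 CPM and the mutant-labelled libraries 96.1, 93.4, 75.7, 94.01 and 96.96 CPM. Of the control-labelled libraries, 4 lay above all mutant-labelled ones, and library 1 lay above mutant-labelled library 3 only. The log2 fold change was -0.30 (SE 0.12, unadjusted p = 0.0262, adjusted p = 0.634 by edgeR). The unadjusted p of edgeR ran from 0.000605 without control-labelled library 1 to 0.0801 without control-labelled library 3, and was also above 0.05 without control-labelled libraries 4 and 5 and mutant-labelled library 3. It was 0.0562 with the replicate number as a block and 0.192 with the osteoblast score as a covariate (log2 fold change -0.26, edgeR). *Itgav*, the alpha partner, held 141, 164, 168, 169 and 173 CPM against 159, 136, 141, 136 and 168 CPM (log2 fold change -0.14, SE 0.078, unadjusted p = 0.0941 by edgeR). *Itgb5*, at chr16:33829665-33949338, held 310, 360, 298, 315 and 275 CPM against 313, 256, 350, 354 and 372 CPM (log2 fold change 0.080, SE 0.10, adjusted p = 0.893 by edgeR). *Itga5*, the fibronectin receptor gene at chr15:103344286-103366763, held 105, 101, 88.9, 98.5 and 84.9 CPM against 97.2, 80.96, 102, 98.1 and 104 CPM (log2 fold change 0.011, SE 0.079, adjusted p = 0.984 by edgeR). *Itga8*, a nephronectin receptor gene, had a log2 fold change of 0.064 (SE 0.12), and *Itgb8*, a partner of αv in the release of TGFβ, one of 0.072 (SE 0.42) from 32 to 128 counts.

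*Itgb3* followed the osteoclast markers from library to library. With group means removed, *Itgb3* and the score of 8 osteoclast markers gave r = 0.82 (permutation p = 0.00309, adjusted p = 0.0185) and rho = 0.83 (permutation p = 0.00469, adjusted p = 0.0281) over 10 libraries. Without control-labelled libraries 1 and 4, the farthest from the median score, r was 0.54, so that the relation rested in part on them. The osteoclast markers summed to 2258 to 3638 CPM in the control-labelled and 2509 to 2826 CPM in the mutant-labelled group, 7 of 8 had lower values in the latter and 1 of 8 an unadjusted p under 0.05 by edgeR. Their part in the values of *Itgb3* was not tested. With platelet and megakaryocyte markers, of which 3 of 9 passed the filter, *Itgb3* gave r = -0.74 (permutation p = 0.0222, adjusted p = 0.0702) and rho = -0.53 (permutation p = 0.124, adjusted p = 0.322). For this pair r was -0.50 without control-labelled library 1 and mutant-labelled library 2. Scaled by library size alone, r was -0.28 (permutation p = 0.448). The platelet partner gene *Itga2b* held 1.80 to 2.55 and 1.94 to 3.10 CPM (log2 fold change 0.14, SE 0.17).

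**Figure D4:**
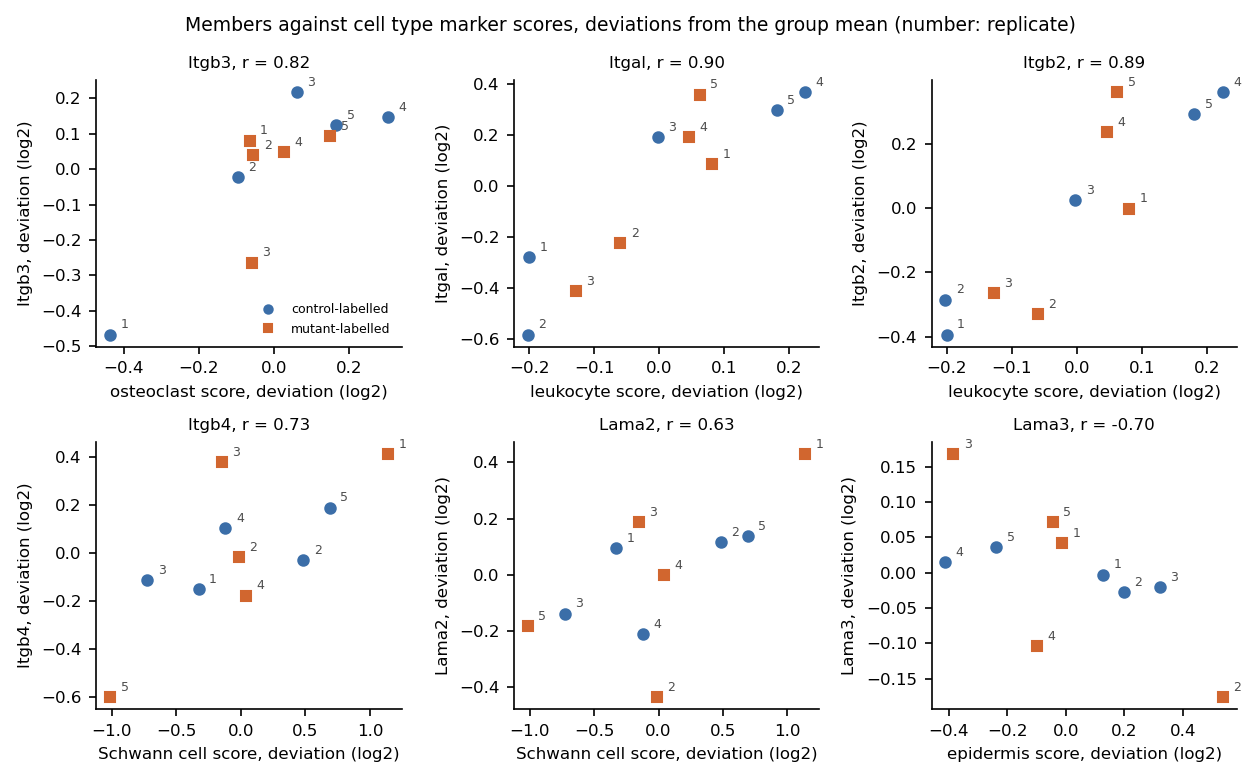
Log2 CPM of 6 members against the mean log2 CPM of the markers of a cell type, both as deviations from the group mean, for 10 libraries numbered by replicate. *Itgb3* goes up with the osteoclast score (r = 0.82), and *Itgal* (r = 0.90) and *Itgb2* (r = 0.89) go up with the leukocyte score.

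The leukocyte integrin genes followed leukocyte markers in the same way. *Itgal*, the alpha subunit gene of the lymphocyte receptor LFA-1, held 2.40 to 4.65 CPM in the control-labelled and 3.38 to 5.78 CPM in the mutant-labelled libraries (log2 fold change 0.31, SE 0.21, unadjusted p = 0.169 by edgeR). With the score of 6 leukocyte markers it gave r = 0.90 (permutation p = 0.000420, adjusted p = 0.00756) and rho = 0.88 (permutation p = 0.00150, adjusted p = 0.0270), and r was 0.85 without control-labelled libraries 1 and 2. Its partner *Itgb2* held 16.3 to 27.4 and 17.1 to 27.5 CPM (log2 fold change 0.0011, SE 0.17), with r = 0.89 (permutation p = 0.000950, adjusted p = 0.00855) and rho = 0.84 (permutation p = 0.00380, adjusted p = 0.0281), and r was 0.84 without the same libraries. The leukocyte markers summed to 292 to 442 and 317 to 359 CPM, and the range of the mutant-labelled group lay inside that of the control-labelled group. Single markers went both ways, with 2 of 6 higher and 4 lower in the mutant-labelled group. *Coro1a* alone had an unadjusted p under 0.05 by edgeR, at 12.85 to 14.8 CPM in the control-labelled and 17.0 to 22.0 CPM in the mutant-labelled libraries.

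*Itgam*, which pairs with the same beta subunit in granulocytes and macrophages, held 11.8 to 21.5 and 15.7 to 22.1 CPM (log2 fold change 0.19, SE 0.15, unadjusted p = 0.226 by edgeR). With the osteoblast score as a covariate in edgeR the log2 fold change was 0.59 (unadjusted p = 0.00822, adjusted p = 0.9999). The 8 granulocyte markers summed to 32.1 to 92.7 CPM in the control-labelled and 102 to 176 CPM in the mutant-labelled libraries, with 8 of 8 higher and 5 of 8 at an unadjusted p under 0.05 by edgeR. *Itgam* and the granulocyte score gave r = 0.26 (permutation p = 0.471, adjusted p = 0.652) and rho = 0.42 (permutation p = 0.231, adjusted p = 0.462), and r was 0.24 without the 2 farthest libraries. The part of these cells in the values of *Itgam* was not tested. *Itgb7* (log2 fold change 0.12, SE 0.13), its partner gene *Itga4* (0.081, SE 0.16) and *Itgax* (-0.011, SE 0.34) all had fold changes smaller than their standard errors.

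Among the laminin-binding integrins, *Itgb4* held 6.33 to 8.02 CPM in the control-labelled and 4.50 to 9.09 CPM in the mutant-labelled group, and it had a log2 fold change of -0.00096 (SE 0.18) whose sign turned under another scaling. With the Schwann cell score it gave r = 0.73 (permutation p = 0.0166, adjusted p = 0.0702) and rho = 0.59 (permutation p = 0.0795, adjusted p = 0.286), and r was 0.29 without mutant-labelled libraries 1 and 5. *Lama2*, a ligand chain of Schwann cells, and the same score gave r = 0.63 (permutation p = 0.0507, adjusted p = 0.130) and rho = 0.50 (permutation p = 0.143, adjusted p = 0.322), and r was 0.33 without the same libraries. *Itga6*, the partner of *Itgb4*, held 65.2 to 71.1 and 58.6 to 76.0 CPM (log2 fold change -0.085, SE 0.069). *Itga3*, a receptor gene for laminin-332, held 5.37 to 7.10 and 4.81 to 7.19 CPM (0.019, SE 0.13), and *Itga7*, the laminin receptor gene of muscle, 8.41 to 10.1 and 6.44 to 14.1 CPM (0.15, SE 0.17). *Itga9* had a log2 fold change of 0.022 (SE 0.080).

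Of the 18 pairs of a member with a marker list, 3 reached an adjusted p under 0.05, those of *Itgb3* with osteoclast and of *Itgal* and *Itgb2* with leukocyte markers. The pairs not described above gave r from -0.33 for *Itgb4* with epidermal markers to 0.52 for *Itga11* with tendon-like markers. Each group of 5 was too small for a value of its own.

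Many members were lowest or highest in the same libraries. Mutant-labelled library 2 had the lowest value of all 10 libraries for 15 of the 34 tested members, and mutant-labelled library 5 for 7. Mutant-labelled library 1 had the highest value for 13 members. The coefficient of variation was higher in the mutant-labelled group for 25 of the 34, as for *Lamc1*, with 14.5% against 6.41%. These counts were not made over all genes tested, so they do not set the members apart from other genes. Over all genes tested, the log2 CPM of pairs of mutant-labelled libraries correlated at r = 0.955 to 0.978. Pairs of control-labelled libraries correlated at r = 0.971 to 0.98. Without mutant-labelled library 2, 7 members had an unadjusted p under 0.05 by edgeR, 4 of them with higher values in the mutant-labelled group, and 0 an adjusted p under 0.05. The share of all genes at an unadjusted p under 0.05 was not counted in that fit. Over all genes, 6 had an adjusted p under 0.05 there, against 3 with all 10 libraries.

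Partner genes of the same pathways were counted in 3 lists. Of 22 basement membrane partners, all tested, 0 had an unadjusted p under 0.05 by edgeR, beside 7.49% of all genes, and 0 were called by DESeq2, with 16 values above and 6 below 0 and a median log2 fold change of 0.051. The most abundant per length were the genes of the network collagen IV, *Col4a1* (1157 ± 72.8 and 1193 ± 120 CPM, SD, n = 5) and *Col4a2* (797 ± 42.8 and 830 ± 83.9 CPM), with log2 fold changes of 0.044 (SE 0.083) and 0.058 (SE 0.079).

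Of 30 integrin ligands, 27 were tested and 8 had an unadjusted p under 0.05 by edgeR, 4 higher and 4 lower in the mutant-labelled group, beside 7.49% of all genes. An adjusted p under 0.05 was reached by 0 with edgeR and by 3 with DESeq2's Wald test, which called 0.615% of all genes. Their median log2 fold change was 0.032. *Ibsp*, bone sialoprotein, averaged 1702 ± 185.3 and 1136 ± 266 CPM (log2 fold change -0.58, SE 0.15, adjusted p = 0.348 by edgeR and 0.0146 by DESeq2), and *Spp1*, osteopontin, 4513 ± 680 and 3477 ± 295 CPM (-0.38, SE 0.11, adjusted p = 0.454 by edgeR and 0.0449 by DESeq2). *Tgfb1*, whose latent form binds αv integrins, averaged 138 ± 10.7 and 115 ± 11.3 CPM (-0.26, SE 0.076, adjusted p = 0.432 by edgeR). Higher values were found for *Col2a1*, the cartilage collagen, at 56.1 ± 8.90 and 103 ± 34.5 CPM (0.88, SE 0.20, adjusted p = 0.302 by edgeR and 0.00357 by DESeq2). The elastic fiber protein gene *Fbln5* averaged 71.7 ± 5.72 and 93.3 ± 15.2 CPM (0.38, SE 0.10, adjusted p = 0.412 by edgeR), and for both of these genes the groups did not overlap. The thrombospondin gene *Thbs1* averaged 204 ± 36.9 and 276 ± 45.4 CPM (0.44, SE 0.14, adjusted p = 0.522 by edgeR). The ligand genes highest per length, *Col1a1* and *Col1a2* of collagen I, had log2 fold changes of -0.048 (SE 0.15) and -0.016 (SE 0.14). The lower osteoblast markers given above moved with *Ibsp* and *Spp1*. Of the 8 chondrocyte markers tested, *Col2a1* among them, 6 were higher and 2 lower in the mutant-labelled group. Of the 5 tendon-like markers, 4 were higher and 1 lower. The part of these cell types in the values of the ligand genes was not tested.

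Of 39 integrin activators and adaptors, 38 were tested and 4 had an unadjusted p under 0.05, 1 higher and 3 lower, a share of 10.5% beside 7.49% of all genes. At an adjusted p under 0.05 there were 0 by edgeR and 1 by DESeq2's Wald test, which called 0.615% of all genes. The median log2 fold change of the list was -0.010. *Arhgef7*, an exchange factor for RAC and CDC42 at adhesions, averaged 71.3 ± 2.01 and 82.8 ± 4.30 CPM without overlap (0.22, SE 0.048, adjusted p = 0.277 by edgeR and 0.00357 by DESeq2). The parvin gene *Parvb* averaged 56.0 ± 6.63 and 47.0 ± 3.09 CPM (-0.25, SE 0.083, adjusted p = 0.522 by edgeR). *Ilk*, the integrin-linked kinase that binds parvins, averaged 112 ± 4.12 and 103 ± 4.97 CPM (-0.12, SE 0.049, adjusted p = 0.639 by edgeR). The talin-binding gene *Kank1* averaged 58.2 ± 6.87 and 50.9 ± 4.07 CPM (-0.19, SE 0.085, adjusted p = 0.656 by edgeR). The adaptor genes highest per length were the filamin gene *Flna* (log2 fold change 0.067, SE 0.071) and *Rap1b*, a small GTPase upstream of talin (-0.058, SE 0.071). The talin gene *Tln1* and the kindlin gene *Fermt2*, which bind beta subunit tails, had log2 fold changes of -0.0087 (SE 0.071) and -0.0013 (SE 0.069).

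**Figure D5:**
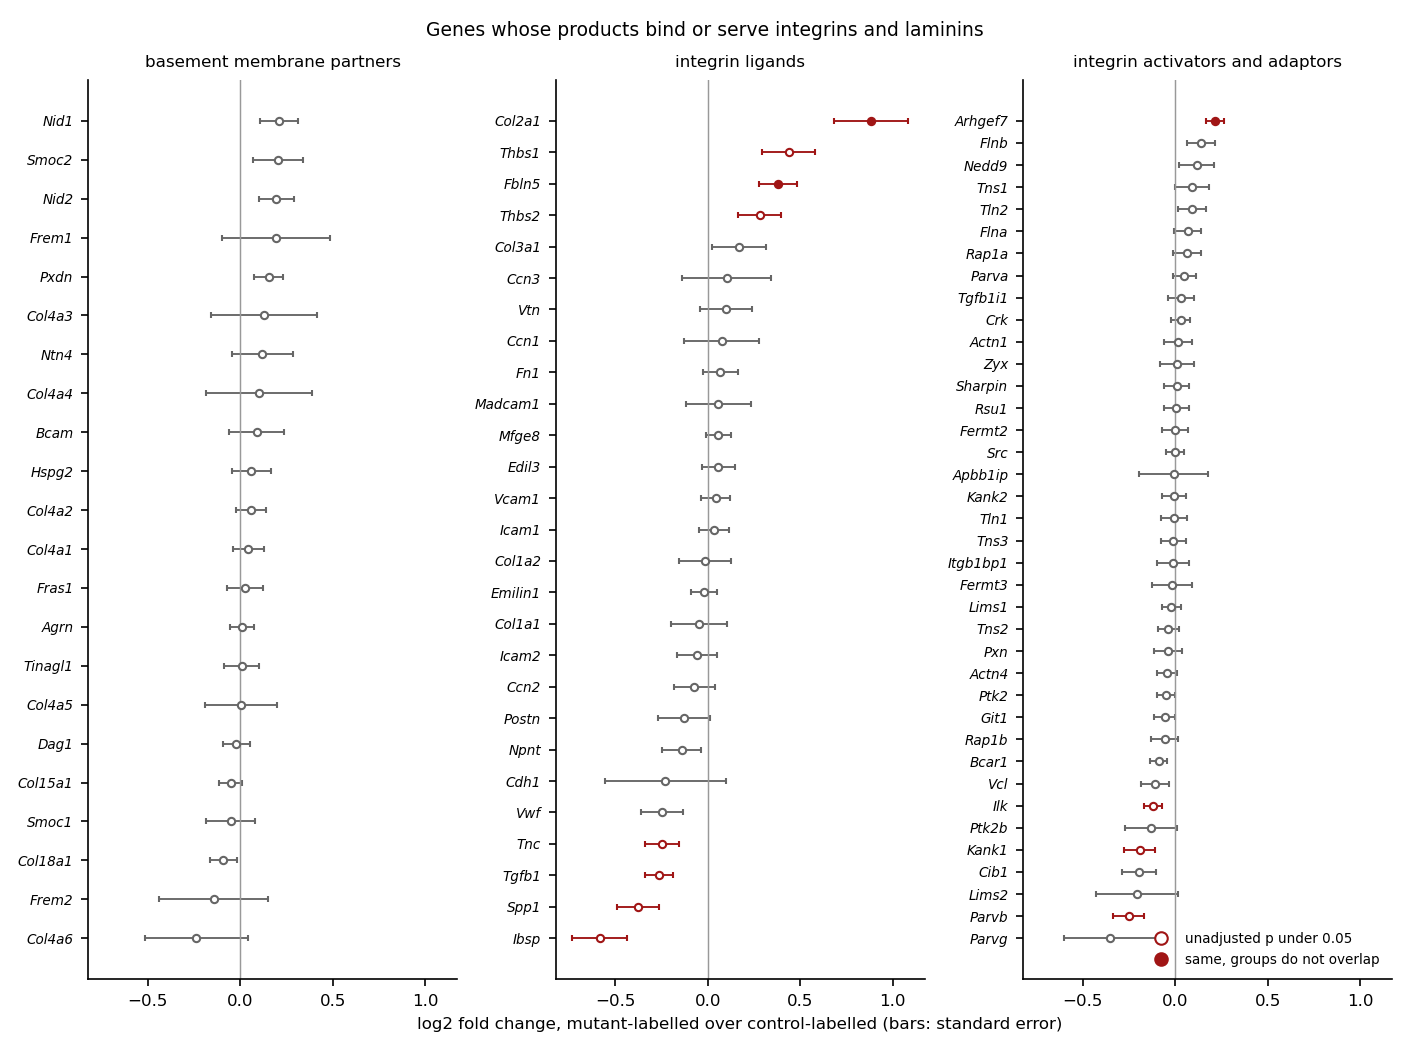
Log2 fold change, mutant-labelled over control-labelled, of the tested genes in 3 lists of binding partners, with bars for the standard error. Red marks an unadjusted p under 0.05 and filled symbols mark groups that do not overlap. The ligand list runs from *Ibsp* at -0.58 to *Col2a1* at 0.88, wider than the other lists.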

How the data were processed

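Total RNA of 10 AF samples was sequenced from stranded libraries in single reads of 50 bases, from littermate pairs of embryos per the study's text. Which libraries form a pair is not in the labels and could not be recovered from the replicate numbers, so that the fit was unpaired and p-values measure the spread between these libraries. The authors deposited estimated counts per gene, for which the submitters' processing notes name Partek and mm10 and of which 67.3% were whole (tolerance 1e-06); the aligner and the strand setting were not given in the sources used here. Columns of other samples numbered 0. Estimated counts were rounded. Of 23080 genes, 16267 passed filterByExpr and were fitted with edgeR 4.0.16 (R 4.3.3, TMM, quasi-likelihood test, Benjamini-Hochberg adjustment), with both labels in 1 fit and no covariate. CPM used the same TMM totals, and log2 CPM a prior count of 0.5. DESeq2 1.42.0, other scalings, no filter, a replicate block, the osteoblast score as covariate and each library left out were the alternatives. The osteoblast score differed between the labels, so the fit with it cannot separate score and label. The script was tested on simulated data. Relations used deviations from group means over 10 libraries and 100000 permutations, which took no account of the removed means; Python 3.11.15, SciPy 1.17.1 and pandas 2.3.3 were used. Exon lengths and overlaps were taken from GENCODE M21 (mm10), whose gene starts and ends matched the deposited ones for 37 of 37 members.

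The members and lists were chosen with earlier results of these data known. Full values were given for members at an unadjusted p under 0.05 or without overlap and for the 3 highest per length among integrin alpha, integrin beta and laminin genes, and for up to 6 genes of each partner list at an unadjusted p under 0.05 by smallest p and its 2 highest per length; *Itgav*, *Lama2*, *Tln1* and *Fermt2* were added after their values were seen. Promoter sequences were from RefSeq, GRCm38.p6, where 23 of 37 members had a window. The values of 1 member are not reported here.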

Additional observations from a re-analysis of the deposited data

Results flagged for a closer look

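Within 5 libraries, a value was singled out where its gap to the nearest library on the log2 CPM scale exceeded 0.71 of the range of the group (Dixon's 95% value); 68 groups were tested, and chance alone singles out about 1 in 20. *Itga5* in mutant-labelled library 2 held 81.0 CPM against 97.2 to 104 CPM in the other 4 libraries, a gap of 0.738 of the range on the log2 scale and 0.713 on the CPM scale. *Itgav* in control-labelled library 1 held 141 CPM against 164 to 173 CPM in the other 4 libraries, a gap of 0.716 of the range on the log2 scale and 0.694 on the CPM scale. *Itgb1* in mutant-labelled library 2 held 438 CPM against 525 to 545 CPM in the other 4 libraries, a gap of 0.825 of the range on the log2 scale and 0.809 on the CPM scale. *Itgb3* in mutant-labelled library 3 held 75.7 CPM against 93.4 to 97.0 CPM in the other 4 libraries, a gap of 0.85 of the range on the log2 scale and 0.834 on the CPM scale. *Lama4* in control-labelled library 3 held 161 CPM against 186 to 193 CPM in the other 4 libraries, a gap of 0.777 of the range on the log2 scale and 0.762 on the CPM scale. *Lamb1* in mutant-labelled library 2 held 191 CPM against 266 to 305 CPM in the other 4 libraries, a gap of 0.71 of the range on the log2 scale and 0.661 on the CPM scale. *Lamb3* in control-labelled library 2 held 0.925 CPM against 0.572 to 0.633 CPM in the other 4 libraries, a gap of 0.788 of the range on the log2 scale and 0.825 on the CPM scale. *Lamc1* in control-labelled library 3 held 264 CPM against 302 to 312 CPM in the other 4 libraries, a gap of 0.801 of the range on the log2 scale and 0.788 on the CPM scale. On the CPM scale *Itgav* and *Lamb1* stay under the limit. Mutant-labelled library 2 accounts for 3 of these 8 values and control-labelled library 3 for 2.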

How the results depend on the processing

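By DESeq2's Wald test 1 member (*Lama3*), 4 partner genes and 98 of all genes had an adjusted p under 0.05, against 0, 0 and 3 by edgeR; at an unadjusted p under 0.05 edgeR gave 5 members. With the replicate block 1 of all genes and with the osteoblast score as covariate 1 of all genes was called, and the members at an unadjusted p under 0.05 were 3 with the replicate block (*Lama3*, *Lama1* and *Itga2*) and 2 with the covariate (*Lama3* and *Itgam*, the latter at a log2 fold change of 0.59 against 0.19 in the fit without it). Without 1 library, all genes called ran from 1 to 6 (6 without mutant-labelled library 2), members called stayed at 0, and members at an unadjusted p under 0.05 ran from 3 (without control-labelled library 3) to 7 (without mutant-labelled library 2). The share of all genes at an unadjusted p under 0.05 was not counted in these refits, so these counts of members have no background. Libraries of the same number had correlations of their deviations from -0.21 to 0.14, with 0 of 5 best matched by its own number, so the numbers were not taken as pairs. Of 204 refits of the 34 member fold changes under settings other than leaving out a library, 186 kept direction and side of the threshold, 1 (*Lama3*, DESeq2's Wald test) passed it and 17 changed sign. With the osteoblast covariate the sign turned for *Itga1* (0.097), *Itga7* (-0.023), *Itga8* (-0.071), *Itga9* (-0.056), *Itgax* (0.15), *Itgb4* (0.072), *Itgb8* (-0.29), *Lama5* (-0.081), *Lamb1* (-0.075), *Lamb2* (0.043) and *Lamb3* (-0.39). It also turned for *Itgb2* without the filter (-0.000763), for *Itgb4* with DESeq2 size factors (0.0069), DESeq2's Wald test (0.00689) and no ribosomal RNA genes (0.0026), and for *Itgb8* (-0.034) and *Lama5* (-0.0018) with the replicate block. Leaving out 1 library, 36 of 340 fits changed sign, in 13 members, whose log2 fold changes ran over -0.12 to 0.020 for *Itga11*, -0.023 to 0.10 for *Itga3*, -0.032 to 0.22 for *Itga4*, -0.022 to 0.073 for *Itga5*, -0.0036 to 0.15 for *Itga8*, -0.0059 to 0.091 for *Itga9*, -0.21 to 0.20 for *Itgax*, -0.096 to 0.097 for *Itgb2*, -0.098 to 0.12 for *Itgb4*, -0.26 to 0.26 for *Itgb8*, -0.084 to 0.095 for *Lama5*, -0.20 to 0.42 for *Lamb3* and -0.025 to 0.11 for *Lamc1*. Scaled by library size alone, 5 relations reached an adjusted p under 0.05, with *Itgb4* (r = 0.81) and *Lama2* (r = 0.76) with Schwann cell markers added, and *Lama5* with endothelial markers had r = 0.12. Without the 2 farthest libraries r turned to -0.32 for *Itga2b* with platelet, -0.76 for *Itga7* with muscle, 0.15 for *Itga10* with chondrocyte and -0.42 for *Lama1* with meningeal markers. The cause was not tested for any of these. Depth limits *Itgax*, *Lamb3*, *Itgad*, *Itgae* and *Itgb6*, with under 40 counts in every library.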
